A study of Mus musculus with 54 samples.

Results

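Pou4f1, Isl1, Isl2, Prdm12, Drgx, Tlx3, Runx1, Runx3, Shox2 and Etv1 encode transcription factors that set or maintain the identity of trigeminal sensory neurons. They were chosen by name, and these 10 genes stand for 10 of the 35976 gene rows of the count table, where Drgx is listed under its older symbol Prrxl1. Their RNA was measured by 3′ RNA sequencing, in which reads are counted near the 3′ end of each transcript, in the trigeminal ganglion (TG) and cornea of male mice of 8 to 12 weeks, to see what loss of the microRNA cluster miR-183/96/182 (miR-183C) does in sensory neurons or in myeloid cells. SNS-CKO mice (n = 3 per tissue) carry Nav1.8-Cre on 1 allele, floxed miR-183C on both alleles, a Cre-dependent RFP reporter and Csf1r-EGFP. Their SNS-WT controls (n = 4 per tissue) carry the same Cre, RFP and EGFP alleles with unfloxed miR-183C. MS-CKO mice (n = 5 per tissue) carry LysM-Cre on 1 allele with floxed miR-183C and Csf1r-EGFP, and MS-WT mice (n = 5 per tissue) carry the floxed miR-183C and Csf1r-EGFP without Cre. The WT mice of the 2 strains thus differ in Cre, in the RFP reporter and in the floxed allele, and both strains are on a mixed C57BL/6 and 129S background. Nav1.8-Cre is driven by the promoter of Scn10a and is active in nearly all small nociceptive neurons and in fewer of the large ones, so that neurons without it keep the cluster, whereas LysM-Cre acts in myeloid cells. Pools of sorted Csf1r-EGFP+ cells from MS-CKO mice, MS-WT mice and WT mice of a gene-trap KO strain are also described, without a test. Those KO-strain WT mice carry Csf1r-EGFP and intact miR-183C.

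All sensory neurons of the ganglion derive from neural crest or placode precursors, and a sequence of transcription factors first ends their neurogenic programme and then divides them into classes. Pou4f1 and Isl1 act in nearly all of them. Prdm12 and Runx1 belong to the nociceptive lineage, and Runx3, Etv1 and Shox2 are known from proprioceptive and touch neurons, mostly of the dorsal root ganglia. Such factors stay active in the adult, where they hold the receptors and channels of each class in place.

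The 3 microRNAs of the deleted cluster are shown because they are what the CKO mice lose in the targeted cells, with the seed, bases 2 to 8 of the mature RNA, in capitals (RefSeq, GRCm38.p6, chromosome 6, minus strand).
miR-183-5p: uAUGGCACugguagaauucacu
miR-96-5p: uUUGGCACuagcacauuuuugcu
miR-182-5p: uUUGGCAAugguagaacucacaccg

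Of the 10 genes, 5 hold a match to 1 of these seeds in an annotated 3′ UTR, and the other 5 (Pou4f1, Isl2, Runx3, Prdm12 and Tlx3) hold none. The motifs searched were GTGCCAT for miR-183-5p, GTGCCAA for miR-96-5p and TTGCCAA for miR-182-5p, on the transcribed strand. GTGCCAT and GTGCCAA differ in their final base, so that a position can match only 1 of them. Of 21022 genes with an annotated 3′ UTR (GENCODE M21, GRCm38, which is mm10), 24.1% hold at least 1 of the 3 motifs. The 5 sites are shown because these are the factors on which a direct effect of the deletion could be looked for, each as the motif in capitals with the 14 bases before it and the base after it, as DNA of the transcribed strand.
Isl1, miR-182-5p, chr13:116299005-116299026, minus strand: tattggtcactgccTTGCCAAa
Runx1, miR-96-5p, chr16:92604728-92604749, minus strand: aagggttcagagagGTGCCAAg
Drgx, miR-182-5p, chr14:32630403-32630424, plus strand: aaagatgaagcgatTTGCCAAa
Shox2, miR-96-5p, chr3:66971823-66971844, minus strand: aaccttttaaataaGTGCCAAg
Etv1, miR-183-5p, chr12:38866482-38866503, plus strand: attttatgtatctgGTGCCATc

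The sites of Isl1 and Drgx are followed by A and are thus of the 8mer type, and the sites of Runx1, Shox2 and Etv1 are of the 7mer-m8 type. The Isl1 site lies in 1 of 2 annotated coding transcripts, the Drgx site in 1 of 5, the Runx1 and Shox2 sites in 2 of 5 each and the Etv1 site in 2 of 10. A match describes the annotated sequence and does not show that the site is used.

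The 17 TG libraries held 2934793 to 5387042 counts and the 17 cornea libraries 2366126 to 6741290, and levels are given as counts scaled to a library total of 1000000 (CPM). The titles of WT libraries name a mouse, and those of CKO libraries give only the strain and a number. Each library was read as 1 mouse, so p-values are taken to measure the spread between mice of a group. Mirc35hg, the host transcript of the cluster, lay between 49.3 and 52.6 CPM in SNS-CKO TG against 0.259 to 3.56 CPM in SNS-WT TG, and between 4.02 and 12.0 CPM in MS-CKO TG against 1.2 to 3.90 CPM in MS-WT TG. The strain was read from the column names, with NACC taken as SNS, and from the names alone another reading is also possible. Another 12 columns of the table repeat used columns in every row, 11 of them under names of the conventional KO strain, and some of them under another tissue or genotype. The TG and cornea of that strain are not analysed here. Which of the names is right is not known, so the strain and genotype of the repeated libraries rest on the name used here. The values taken here as MS rest on reading names without NACC as MS. The tag B2 stands in the names of all SNS libraries and of MS-CKO libraries 4 and 5 and MS-WT library 5, and the labels do not explain it. The other reading takes untagged libraries as SNS and B2 libraries as MS. It joins the SNS-CKO TG libraries with MS-CKO libraries 4 and 5, where Mirc35hg was at 6.02 and 6.47 CPM. Lyz2, into which LysM-Cre is inserted, lay between 0.754 and 2.36 CPM in MS-CKO TG against 2.34 to 7.24 CPM in MS-WT TG. In the SNS strain it lay between 2.34 and 6.05 CPM in CKO TG against 1.48 to 6.17 CPM in WT TG, all at low counts.

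All 10 factors were read in every TG library, with at least 64 counts in each. Drgx, a paired-type homeodomain factor of the somatosensory circuit, and Pou4f1, a POU-domain factor, had the highest levels, with 332 ± 27.0 and 308 ± 25.2 CPM in the TG of 9 WT mice (mean ± SD). Drgx was above Pou4f1 in 5 of the 9 libraries, so these neighbours did not differ beyond their spread. Isl1, a LIM-homeodomain factor, followed with 208 ± 26.6 CPM and its relative Isl2 with 180 ± 13.6 CPM.

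The ranges of Pou4f1 and Isl1 lay apart, as did those of Isl2 and Runx1, and all other neighbours in this order overlapped. Runx1, a runt-domain factor of non-peptidergic nociceptors that also acts in blood cells, averaged 98.0 ± 14.1 CPM, and Shox2, a homeodomain factor of touch neurons, 80.4 ± 11.8 CPM. Prdm12, a PRDM-family regulator needed for nociceptors to form, averaged 57.1 ± 22.4 CPM, with by far the widest spread for its level. Tlx3, a homeodomain factor of excitatory sensory neurons, averaged 47.0 ± 7.33 CPM. The lowest were the ETS factor Etv1 with 30.9 ± 5.31 CPM and Runx3, also a runt-domain factor, with 30.3 ± 6.28 CPM. Etv1 was the higher of these in 4 of 9 libraries. In 3′ sequencing a transcript gives reads at its end whatever its length, so these levels were not divided by length, but they depend on how well each 3′ end is annotated. Over all 17 TG libraries the coefficient of variation was 35.7% for Prdm12 and between 7.57% (Pou4f1) and 19.0% (Runx3) for the others, where counting alone would give 7.19% for Prdm12 and 9.86% for Runx3.

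**Figure D1:**
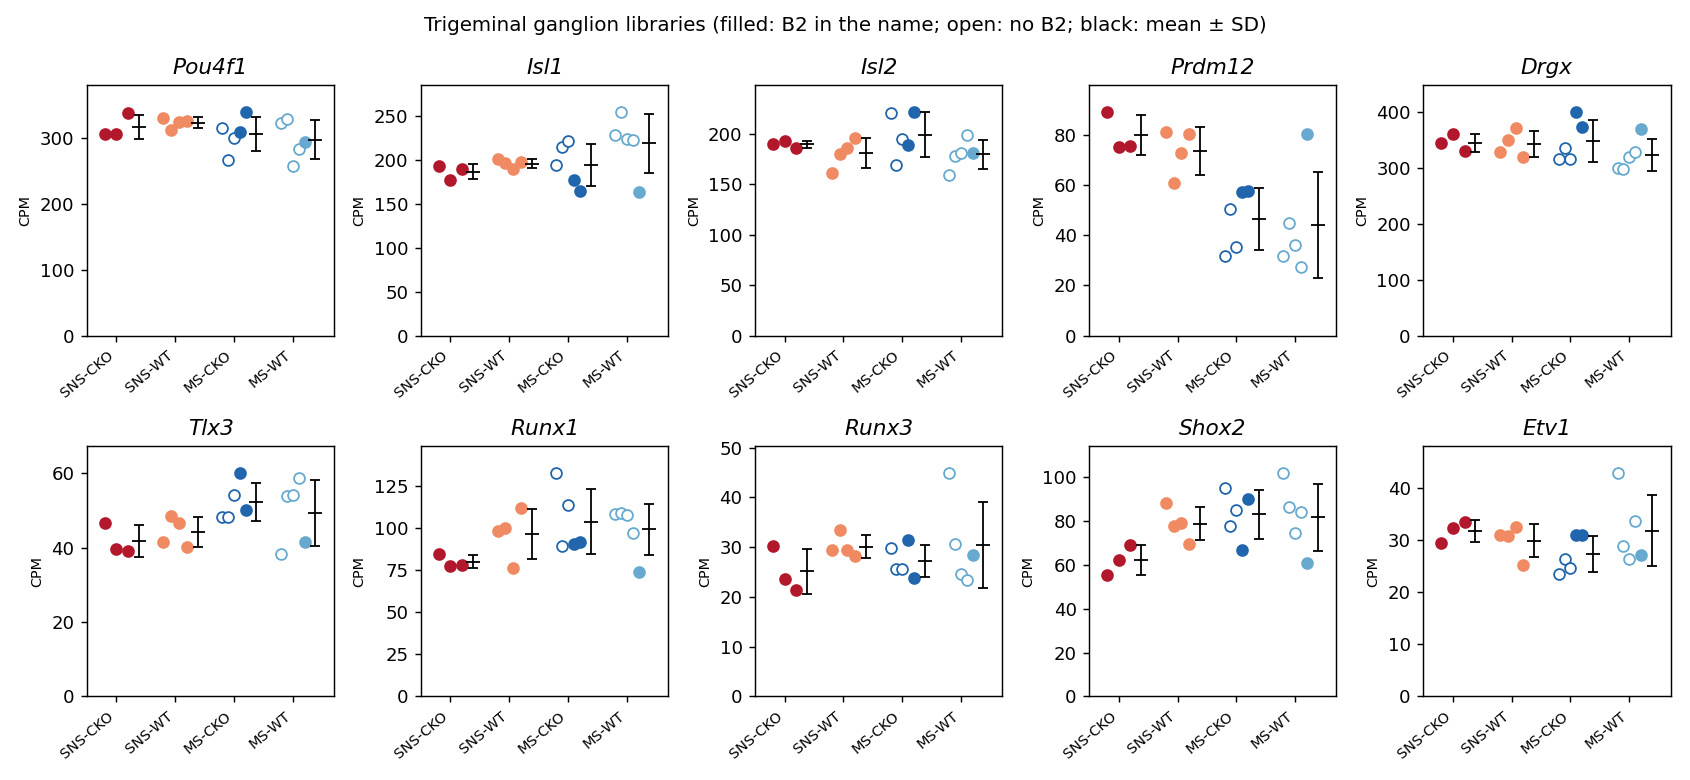
Levels of the 10 factors in the TG, in CPM from 0, with 1 point per library for SNS-CKO (n = 3), SNS-WT (n = 4), MS-CKO (n = 5) and MS-WT (n = 5), filled where the name carries B2 and open where it does not, and the mean ± SD in black. CKO and WT points lie among each other for most genes, while the filled points of Prdm12 (57.0 to 89.1 CPM) all lie above its open points (27.3 to 50.5 CPM).

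None of the 10 factors passed the test in the TG of SNS-CKO mice against SNS-WT mice, and 5 of the 12769 genes tested (0.0392%) did, at a Benjamini-Hochberg adjusted p under 0.05 in the quasi-likelihood test of edgeR. An unadjusted p under 0.05 was found for 2 of them, Shox2 and Runx1, among 852 such genes (6.67%). The median log2 change of the factors was -0.05 against 0.00 over all genes.

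Shox2 was read at 55.6, 62.2 and 69.3 CPM in SNS-CKO TG, against 88.2, 77.9, 79.3 and 69.7 CPM in SNS-WT TG. Each SNS-CKO value was below each SNS-WT value, but the highest SNS-CKO library (69.3 CPM) was next to the lowest SNS-WT library (69.7 CPM). The log2 change was -0.34 (SE 0.12), a ratio of 0.790 with a 95% interval of 0.666 to 0.938, and the edgeR p was 0.0089 unadjusted and 0.574 adjusted over all genes. Shox2 was the only one of the 10 whose groups did not overlap, where 931 of the genes tested (7.29%) did not. Shox2 overlaps Rsrc1 on the opposite strand in the annotation, and whether the counting used strand is not given in the sources used here.

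Runx1 was read at 84.2, 77.6 and 78.0 CPM in SNS-CKO TG, against 98.2, 100 and 112 CPM in 3 SNS-WT libraries and 76.2 CPM in SNS-WT library 3. That last library lay below all SNS-CKO values, so the groups overlapped. The log2 change was -0.27 (SE 0.12, 95% interval -0.51 to -0.03), with an edgeR p of 0.028 unadjusted and 0.711 adjusted. In a bulk tissue, fewer cells of a type and less RNA per cell cannot be told apart, for Runx1 and for all other factors. The 11 neuron markers summed to between 27117 and 28828 CPM in SNS-CKO TG and between 27865 and 30418 CPM in SNS-WT TG, and the 8 vessel and blood markers to between 761 and 1322 CPM against 1015 to 3024 CPM. All of these markers were above 0 in both groups, and their part in the values of Shox2 and Runx1 was not tested beyond a scaling to the neuron markers, under which Shox2 had a log2 change of -0.28 and Runx1 of -0.22.

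The 4 most abundant factors had the narrowest intervals. Pou4f1 averaged 316 ± 18.2 CPM in SNS-CKO and 322 ± 8.28 CPM in SNS-WT TG, a ratio of 0.979 with a 95% interval of 0.874 to 1.10. For Drgx the ratio was 1.01 (0.895 to 1.13), for Isl1 0.951 (0.844 to 1.07) and for Isl2 1.05 (0.923 to 1.19). Prdm12 averaged 79.8 ± 7.98 CPM in SNS-CKO and 73.5 ± 9.44 CPM in SNS-WT TG, with a ratio of 1.09 (0.915 to 1.29).

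The less abundant factors were measured less closely. Runx3 averaged 25.1 ± 4.6 CPM in SNS-CKO and 30.1 ± 2.25 CPM in SNS-WT TG, and its interval reached from 0.654 to 1.06. Tlx3 had a ratio of 0.944 (0.775 to 1.15) and Etv1 of 1.06 (0.845 to 1.33). Of the 5 genes with a seed match, Shox2, Runx1 and Isl1 had ratios under 1 and Drgx and Etv1 above 1, and none passed the adjusted test in either direction.

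**Figure D2:**
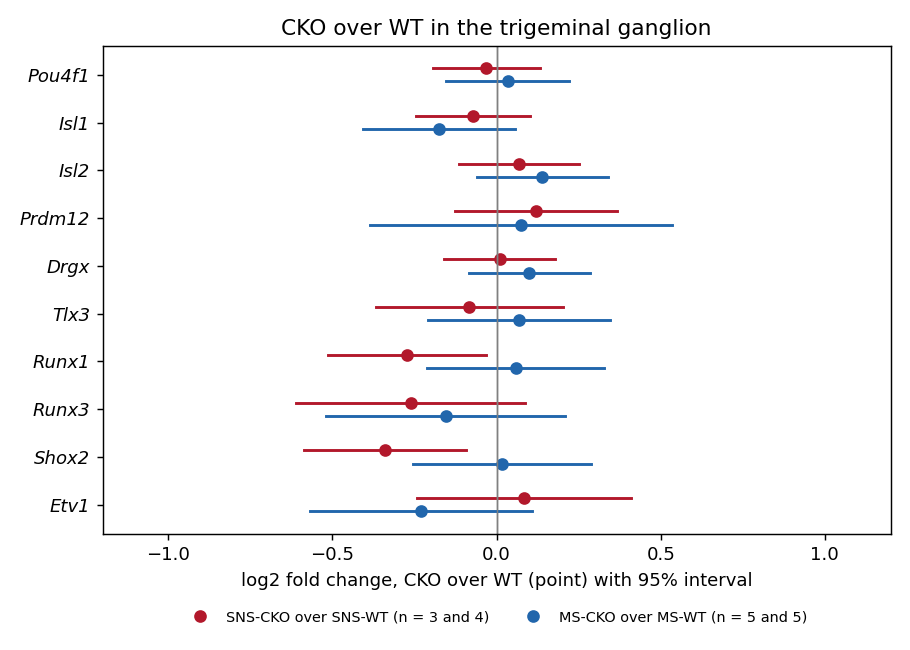
Log2 change of each factor in the TG with its 95% interval, for SNS-CKO over SNS-WT in red and for MS-CKO over MS-WT in blue. All intervals include 0 except those of Shox2 and Runx1 in the SNS strain, whose adjusted p-values are 0.574 and 0.711.

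In the MS strain, too, none of the 10 factors passed the test in TG of MS-CKO against MS-WT mice, and none had an unadjusted p under 0.05. Of the 12480 genes tested with edgeR 0 passed (0%), 372 (2.98%) had an unadjusted p under 0.05, and DESeq2 called 0. The median log2 change of the factors was 0.05 against 0.00 over all genes. The largest was that of Etv1, whose level was 27.3 ± 3.50 CPM in MS-CKO and 31.8 ± 6.84 CPM in MS-WT TG (log2 change -0.23, SE 0.16). No factor had groups that did not overlap, against 64 of the genes tested (0.513%).

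Shox2 was read at 94.99, 77.9, 85.1, 67 and 90.3 CPM in MS-CKO TG, against 102, 86.4, 74.4, 84.3 and 61.1 CPM in MS-WT TG. These groups overlapped fully, with a ratio of 1.01 and a 95% interval of 0.839 to 1.22. Runx1 averaged 103 ± 19.3 CPM in MS-CKO and 99.1 ± 15.1 CPM in MS-WT TG, with a ratio of 1.04 (0.863 to 1.25). The widest interval was that of Prdm12, from 0.765 to 1.45, at 46.4 ± 12.2 CPM in MS-CKO and 44.0 ± 21.3 CPM in MS-WT TG. The log2 change of Prdm12 was 0.07, and it was -0.03 with the tag as a covariate. With 1 library left out it ran from -0.06 to 0.40, the highest value being that without MS-WT library 5, in which Prdm12 was at 80.3 CPM.

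The responses of the strains were compared directly as an interaction. None of the 10 factors passed, and 1 of the 13728 genes tested (0.00728%) did. The smallest unadjusted p-values were those of Shox2 (0.072) and Runx1 (0.097), for which the SNS response minus the MS response was -0.36 (SE 0.19) and -0.34 (SE 0.20) on the log2 scale, both with an edgeR adjusted p of 0.998. So the lower Shox2 and Runx1 values of SNS-CKO TG were not shown to differ from the MS response. If the strain names are read the other way, the log2 change of Shox2 in the group then called SNS-CKO is -0.01 and that of Runx1 is 0.09.

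Other genes of the same programme gave a similar count. Of 25 other sensory neuron factors tested in TG of SNS-CKO against SNS-WT mice none passed, with a median log2 change of -0.07. The smallest unadjusted p-values were those of Tshz2 (log2 change -0.21, SE 0.08), a zinc-finger homeodomain factor, and Bhlhe22 (-1.12, SE 0.45), a bHLH factor. Of 12 cofactors of the named factors none passed, with a median of 0.01, and those with the smallest unadjusted p were Ehmt2, a histone methyltransferase (log2 change 0.30, SE 0.14), and Lmo1, a LIM-only protein (0.44, SE 0.20). Of 25 receptors and channels that define neuron classes none passed either, with a median of -0.13, and 6 of them had a positive value. Positive values were also found for 6 of the 25 other factors and 6 of the 12 cofactors. In the MS strain 15 of 24 receptors and channels were positive. An unadjusted edgeR p under 0.05 was found for 2 of the 25 receptors and channels in the SNS strain, against 6.67% of all genes. Calca, the precursor of the neuropeptide CGRP, had a log2 change of -0.23 (SE 0.09) and Mrgprd, a receptor of non-peptidergic nociceptors that depends on Runx1, of -0.23 (SE 0.11). Ntrk3, the receptor of neurotrophin-3, had a log2 change of -0.17 (SE 0.09).

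In the MS strain 0 of 24, 0 of 12 and 0 of 24 genes of these lists passed, with medians of 0.04, 0.01 and 0.03. Onecut1, an Onecut-family factor, had the smallest unadjusted p of its list in the MS strain, with a log2 change of 0.50 (SE 0.22).

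The tag B2 separated the levels of several factors within the MS strain. In a comparison added after the values had been seen, 4 of the 10 factors passed the test between the 3 B2 and the 7 untagged TG libraries of that strain, with genotype as a covariate. Prdm12 and Drgx were higher in the B2 libraries, where 460 of the 13181 genes tested (3.49%) were, and Isl1 and Runx1 were lower, as were 472 genes (3.58%). What the tag stands for cannot be told apart from the mice whose libraries carry it.

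Prdm12 was read at 57.0, 57.6 and 80.3 CPM in the B2 libraries and at 31.7, 50.5, 35.2, 31.7, 44.7, 36.0 and 27.3 CPM in the untagged libraries. All B2 values were above all untagged ones, as they were for 800 (5.5%) of the 14553 genes with a mean of at least 1 CPM, while 610 (4.19%) had all B2 values below. The ratio was 1.76 with a 95% interval of 1.41 to 2.21 (log2 change 0.82, SE 0.16, edgeR adjusted p = 0.00088).

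Isl1 was read at 177, 165 and 164 CPM in the B2 libraries, against a lowest, median and highest value of 193, 222 and 254 CPM in the untagged libraries. Again the ranges lay apart, with the B2 libraries below. The ratio was 0.760 (0.671 to 0.860, adjusted p = 0.0034). Drgx ran the other way, at 401, 375 and 370 CPM in the B2 libraries and from 299 to 337 CPM in the untagged ones, with a ratio of 1.18 (1.06 to 1.31, adjusted p = 0.047). Runx1 was read at 90.3, 91.7 and 73.5 CPM in the B2 libraries and from 89.2 to 133 CPM in the untagged ones, so that the ranges overlapped, with a ratio of 0.755 (0.642 to 0.888, adjusted p = 0.025).

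Shox2 had an unadjusted p of 0.025 in the same direction as Runx1 (log2 change -0.30, adjusted p = 0.171), and the other 5 factors had values from -0.06 to 0.06. These calls rested on few libraries. Without MS-WT library 5 none of the 4 calls remained (adjusted p from 0.136 to 0.305), and the log2 change of Prdm12 was 0.52, against 0.82 with all libraries, that of Isl1 -0.32 against -0.40, that of Drgx 0.23 against 0.24 and that of Runx1 -0.33 against -0.40. The Drgx call was also lost with RLE factors (adjusted p = 0.051), with no filter on low counts (adjusted p = 0.106) and without each of MS-CKO libraries 1, 3, 4 and 5 and MS-WT libraries 1, 2 and 3, and that of Runx1 without MS-CKO libraries 1, 4 and 5, while Isl1 and Prdm12 passed in all fits that left out another library than MS-WT library 5. In all of these fits the log2 change of Drgx stayed between 0.22 and 0.26.

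The neuron markers summed to between 27657 and 28932 CPM in the B2 libraries and to between 30427 and 33979 CPM in the untagged libraries, so these ranges lay apart as well. Glial markers summed to between 17934 and 21592 CPM against 14536 to 20137 CPM, and leukocyte markers to between 49.5 and 60.3 CPM against 55.8 to 85.0 CPM, in both cases with overlap. Krt12, the keratin of corneal epithelium, was at 21.2 to 25.1 CPM in the B2 TG libraries and at 0 to 0.900 CPM in the untagged ones. The part of these differences in the values of Prdm12, Isl1, Drgx and Runx1 was not tested. Of the other lists, Ebf2 among 24 sensory neuron factors, Lmo4 among 12 cofactors and Scn10a among 26 receptors and channels passed, with log2 changes of -0.67, -0.35 and 0.35, and the list medians were -0.04, -0.11 and 0.10. Over all genes tested 3.49% were higher and 3.58% lower in the B2 libraries, so these calls are not read as a result about the lists.

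**Figure D3:**
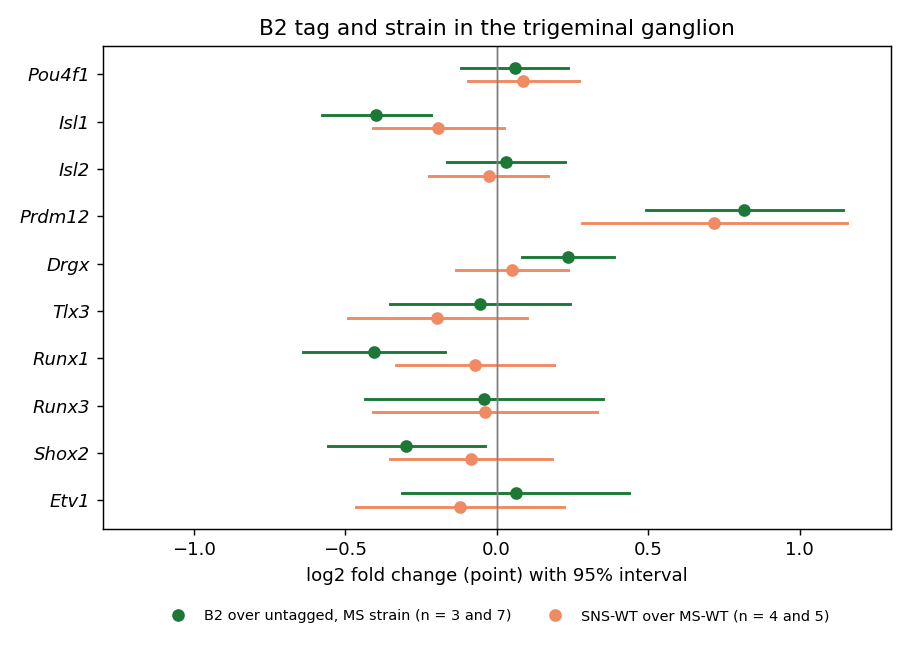
Log2 change of each factor in the TG with its 95% interval, for B2 over untagged libraries within the MS strain in green and for SNS-WT over MS-WT in orange. In both, Prdm12 is farthest from 0, at 0.82 and 0.72, and the intervals of Isl1, Drgx, Runx1 and Shox2 exclude 0 in the first only.

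Between strains, none of the 10 factors passed in TG of SNS-WT against MS-WT mice, where 120 of the 12733 genes tested (0.942%) were higher and 163 (1.28%) lower. The WT libraries of the MS strain that enter here are also part of the comparisons above. Prdm12 came nearest, at 80.9, 60.5, 72.6 and 80.1 CPM in SNS-WT TG against 31.7, 44.7, 36.0 and 27.3 CPM in the untagged MS-WT libraries and 80.3 CPM in the 1 MS-WT library with B2. That library alone lay among the SNS-WT values. The log2 difference was 0.72 (SE 0.21, edgeR adjusted p = 0.073), and it was 1.05 (adjusted p = 4.1e-05) without that library. In a fit of all TG libraries with the tag as a covariate it was 0.13 (adjusted p = 0.917).

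For Isl1, which averaged 196 ± 4.94 CPM in SNS-WT and 218 ± 33.3 CPM in MS-WT TG, the log2 difference was -0.19 (SE 0.10, adjusted p = 0.375), and without MS-WT library 5 it was -0.28 (adjusted p = 0.030). With the tag as a covariate it was 0.13 (adjusted p = 0.793). The other 8 factors had differences between -0.20 (Tlx3) and 0.09 (Pou4f1), and no adjusted p under 0.539. All SNS libraries carry the tag, so apart from the 3 tagged MS libraries strain and tag cannot be told apart.

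Among the factors, levels of some pairs ran together or apart over the 17 TG libraries. On log2(CPM + 0.5), Pearson's r was -0.82 for Isl1 and Drgx, -0.68 for Runx1 and Drgx, -0.67 for Prdm12 and Shox2 and 0.64 for Runx1 and Shox2. These are descriptions over libraries that share the tag, the strain and the genotype groups. The genes most like each factor, among 11106 genes with a mean of at least 5 CPM, shared the same structure. They included Tcp11l1 and Atp1b3 for Prdm12 (r of 0.94 and 0.93) and were S100a10, Dynll1 and Rhoa for Isl1 (0.89 to 0.91). For Drgx they were Tuba4a, Rps27a and Syn1 (0.87 to 0.91), for Runx1 Gigyf2, Trrap and Bcl7a (0.86 to 0.89) and for Shox2 they included Vps41 and Tmod2 (0.89 and 0.83). Pou4f1 was most like Nat10, Cplx2 and Akap9, with r from 0.81 to 0.84. Weaker likeness was found for Isl2 (Nup188, Rnf40 and Timm8b, up to 0.79), Tlx3 (Cpt1c, Rtn1 and Arhgap27, up to 0.79), Runx3 (Flad1, Bri3bp and 1500011B03Rik, up to 0.75) and Etv1 (B930041F14Rik, Zfand6 and Ift81, up to 0.81).

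The cornea receives the endings of TG neurons but holds none of their cell bodies, and served as a contrast. All 10 factors were higher in the 9 WT libraries of TG than in the 9 WT libraries of cornea, as were 5690 of the 12935 genes tested (44%), while 5203 (40.2%) were lower. Of the 10 factors, 9 missed the filter on low counts in the cornea and entered this test through the TG, so their passing it is no finding in itself. The neuron markers summed to between 27117 and 33979 CPM in TG and to between 1.90 and 41.1 CPM in cornea over all 17 libraries each, and those of corneal epithelium to between 786 and 915 CPM in TG against 71603 to 85402 CPM in cornea. So the labelled tissues show their own markers. The labels do not say whether TG and cornea libraries of the same number came from the same mouse, and the fit held strain but no mouse as a term.

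Tlx3 had 0 counts in all 17 cornea libraries, against 1721 counts in the 9 WT libraries of TG. With a floor of 3 counts over the 9 WT corneas it was at least 623-fold higher in TG. Isl2 and Prdm12 had 2 counts each in the WT corneas, against 6502 and 1958 in TG, and their ratios were 3532 (95% exact interval 977 to 29173) and 1064 (294 to 8789). All of these cornea counts were in B2 libraries of SNS-WT mice, and the 5 MS-WT corneas were at 0 for both genes. Within the B2 libraries the ratios were 1488 (412 to 12295) for Isl2 and 614.5 (169.8 to 5079) for Prdm12, and within the untagged libraries they were at least 1363 and at least 256. All intervals of these pooled ratios cover counting error only.

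Isl1 had 7 counts and Drgx 10 counts in the WT corneas, with ratios of 1167 (566 to 2903) and 1296 (705 to 2704). All of these counts were in the 5 WT corneas with B2, that is the 4 SNS-WT libraries and MS-WT library 5, and the 4 untagged MS-WT corneas were at 0. Within the B2 libraries the ratios were 444 (215 to 1105) for Isl1 and 575 (313 to 1200) for Drgx, and within the untagged libraries they were at least 1730 and at least 2366, with the floor of 3 counts over 4 corneas. For Pou4f1, which had 45 counts in cornea and was above 0 in all 9 libraries, the ratio was 264 (197 to 362), although its TG level was close to that of Drgx. Etv1, Shox2 and Runx3 were read at a low level in cornea, with 24, 57 and 56 counts, and ratios of 50.3 (33.7 to 78.9), 55.0 (42.3 to 72.8) and 20.8 (15.9 to 27.7). The highest single cornea value among these 3 was 3.33 CPM, of Shox2.

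Runx1 stood apart from the other 9 factors in the cornea. It was read in all 17 cornea libraries, at 45.8 to 56.3 CPM in SNS-CKO, 36.7 to 55.4 CPM in SNS-WT, 32.1 to 53.3 CPM in MS-CKO and 38.4 to 50.7 CPM in MS-WT corneas. In pooled counts of the 9 WT libraries per tissue, the measure used above for the other factors, its ratio of TG to cornea was only 2.26 (2.13 to 2.39). In the edgeR fit, whose interval covers the spread between mice, the ratio was 2.05 (1.80 to 2.34, log2 difference 1.04, SE 0.09, edgeR adjusted p = 5.0e-11). The lowest TG value, 73.5 CPM, was above the highest cornea value. Runx1 is also used by leukocytes, and Ptprc, the pan-leukocyte marker CD45, was at 3.27 to 11.7 CPM in TG and at 0.158 to 1.70 CPM in cornea. There were between 8.40 and 27.9 Runx1 counts per Ptprc count in the TG libraries and between 24.9 and 239 in the cornea libraries. In 3 pools of sorted myeloid cells of the spleen there were between 0.0826 and 0.181. These pools came from MS-CKO mice, MS-WT mice and WT mice of the KO strain. The part of leukocytes in the Runx1 values was not tested. The leukocyte markers summed to between 10.5 and 25.8 CPM in cornea, where 9 of 10 were above 0 in at least 1 library and Cd207 was at 0 in all.

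**Figure D4:**
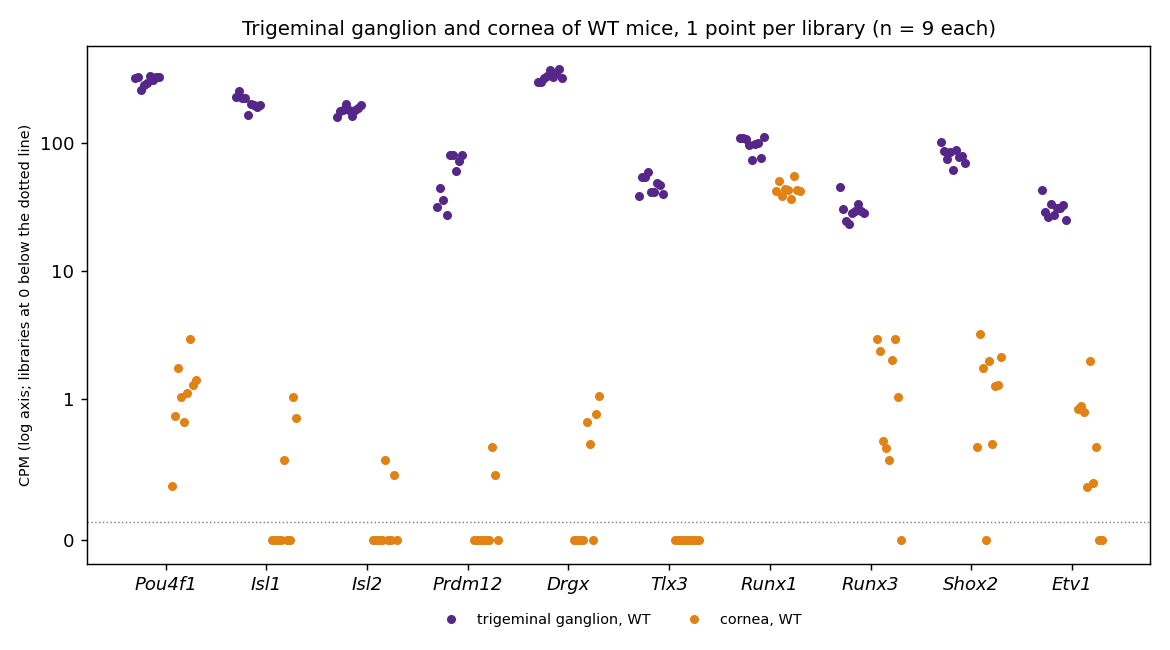
Levels of the 10 factors in TG and cornea of WT mice (CPM, log axis), with 1 point per library, 9 per tissue, and libraries at 0 drawn below the dotted line. Runx1 is the only factor whose cornea points (36.7 to 55.4 CPM) come near its TG points, and Tlx3 is at 0 in all corneas.

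Only Runx1 could be tested between genotypes in the cornea. It was read at 56.3, 53.3 and 45.8 CPM in SNS-CKO corneas, against 43.1, 36.7, 55.4 and 42.7 CPM in SNS-WT corneas. The groups overlapped, with a log2 change of 0.23 (SE 0.16, edgeR adjusted p = 0.815). In the MS strain it averaged 45.5 ± 8.42 CPM in MS-CKO and 43.3 ± 4.54 CPM in MS-WT corneas (log2 change 0.08, SE 0.15, adjusted p = 0.999). With edgeR 0 of 11463 genes (0%) passed in the SNS corneas and 0 of 11830 (0%) in the MS corneas, with 715 and 421 genes at an unadjusted p under 0.05, and DESeq2 called 0 in each.

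The other lists were compared between TG and cornea as well, a comparison in which 44% of all genes tested were higher in TG and 40.2% lower. Of 19 other sensory neuron factors tested, 14 were higher in TG and 3 lower, with a median log2 difference of 3.87 against 0.07 over all genes. Onecut2 was the one with the smallest p (9.71, SE 0.20), and Rora (-2.18) and Bcl11a (-1.91), which have roles in other tissues, were among those lower in TG. Of 12 cofactors 7 were higher and 5 lower, Lmo4, a LIM-only protein, by -1.81 (SE 0.07). Of 22 receptors and channels 21 were higher in TG, Scn10a by 11.29 (SE 0.20), and Met, the receptor of hepatocyte growth factor, was lower by -6.10. Within the cornea of each strain, only 10 of 31 other factors, 9 of 16 cofactors and 5 of 28 receptors and channels passed the filter on low counts. Scn10a had 3 counts over the 9 WT corneas. Genes that entered this test only through the TG could hardly be other than higher there, so their passing it is no finding in itself.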

How the data were processed

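TG and cornea libraries of SNS-CKO, SNS-WT, MS-CKO and MS-WT mice were compared. The authors used the QuantSeq 3′ FWD kit and NovaSeq sequencing, with STAR alignment to mm10 and HTSeq tabulation (for which the sources used here give neither version nor annotation). Values were deposited as raw read counts per gene, with no normalization. Of the 54 per-sample columns 14 were not used: 12 equal a used column in every row (11 under names of the KO strain, 1 with no header), and the names of 2 sorted pools do not give their strain.

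The quasi-likelihood F test of edgeR 4.0.16 was run on these counts after TMM and filterByExpr (limma 3.58.1 under R 4.3.3), and Benjamini-Hochberg adjustment took in every gene tested, at 0.05. Comparisons were CKO against WT per strain and tissue, TG against cornea in WT mice with strain as a covariate, SNS-WT against MS-WT, the interaction, and, added after values had been seen, B2 against untagged libraries. Alternatives were RLE factors, DESeq2 1.42.0 without independent filtering, no filter, a fit of all groups, the replicate number as a block, the tag as a covariate, untagged libraries only, the other strain reading, leaving out each library and, added later, scaling to neuron markers and, for the pooled ratios, a split by the tag. The SE is the log2 change over the square root of F. The script was tested on simulated data. Replicate numbers do not pair libraries.

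Likeness was Pearson's r of log2(CPM + 0.5). Ratios of pooled counts have exact 95% intervals and a floor of 3 counts. The 10 factors, all named, and 3 lists (other sensory neuron factors, cofactors, receptors and channels, of which up to 4 with the smallest p per comparison could be named, with Rora, Bcl11a and Met named in addition after their values were seen) and the marker lists were chosen with earlier results of these data known. Drgx was matched as Prrxl1 through RefSeq synonyms. A few genes picked by these rules are not reported here.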

Additional observations from a re-analysis of the deposited data

Results flagged for a closer look

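The sorted Csf1r-EGFP+ cells, 1 library each pooled from several mice and used in no test above, held reads of some of the factors. The WT mice of the KO strain, a gene-trap line, carry Csf1r-EGFP and intact miR-183C, and no Cre or floxed allele is given for them. Spleen myeloid cells had Runx1 at 95.5 CPM (MS-WT) and 86.8 CPM (WT mice of the KO strain), and at 79.3 CPM in the MS-CKO pool, which was not above its control. Runx3 was at 219 CPM in the MS-CKO spleen pool against 113 CPM in the MS-WT spleen pool, and at 12.1 CPM in the spleen pool of WT mice of the KO strain. The other 8 factors were at 0 in all 3 spleen pools. With 1 pool per group there is no test of these differences.

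Sorted corneal resident myeloid cells (CRMCs) had Runx1 at 0 in all 3 pools, where 3 counts would be 0.278 to 1.33 CPM. Shox2 was at 186 CPM in the MS-WT CRMC pool and 0 in the others, Etv1 at 94.97 CPM in the MS-CKO CRMC pool and 0 in the others, and Runx3 at 2.13 CPM in the MS-WT CRMC pool. The CRMC pools held 1650 to 6455 genes above 0, against 15047 to 16748 in whole corneas, and Krt12 at 2975 to 13244 CPM. The part of few molecules or of epithelial RNA in these values was not tested. Dixon's test called no outlying library among 33 groups of 4 or 5 libraries, for all factors in TG and for Runx1 in cornea. With so few libraries it can call only extreme values, and the SNS-CKO groups of 3 were not tested. It did not call MS-WT TG library 5 for Prdm12, at 80.3 CPM against 27.3 to 44.7 CPM in the rest of that group.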

How the results depend on the processing

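Over all alternatives run, no factor passed the test between CKO and WT in TG or cornea or in the interaction. In the comparison of SNS-WT with MS-WT, the count of factors was 1 (Prdm12) without a filter on low counts and from 0 to 2 with a library left out. Between B2 and untagged libraries it was from 0 to 4 with a library left out, 0 without MS-WT library 5.

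Counts over all genes moved more. For SNS-CKO against SNS-WT in TG 5 genes passed, and 33 did without a filter, 3 in a fit of all groups, 8 with the replicate block, 0 under the other strain reading, 8 after scaling to the neuron markers, and 2 to 11 with a library left out. For MS-CKO TG the 0 became 11 without a filter and 1 under the other reading. In the cornea, 37 (SNS) and 27 (MS) passed without a filter, 1 (SNS) with the replicate block and 0 to 2 (SNS) with a library left out. The interaction gave 4 with DESeq2, 18 without a filter, 3 with the tag as a covariate and 0 under the other reading, in place of 1. For SNS-WT against MS-WT, 283 genes became 462 with DESeq2, 563 without a filter, 27 with the tag as a covariate and 44 to 1129 with a library left out. Between B2 and untagged libraries, 932 became 301 to 995 with a library left out. The cause of these changes was not tested.

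Same-numbered libraries did not deviate together (correlations from -0.08 to 0.18), and 0 of 3 SNS-CKO and 2 of 5 MS-CKO TG libraries were closest to their own number, so the block rests on a shared number alone. Over the TG libraries the spread was 35.7% for Prdm12 and 16.8% for Runx1, where counting alone would give 7.19% and 5.36%. With 0 to 10 counts over the 9 WT corneas, depth limits the ratios of Tlx3, Isl2, Prdm12, Isl1 and Drgx.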
